A study of Rattus norvegicus albus with 14 samples.

Results

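The genes described here carry glucose into the cell, break it down to pyruvate and lactate, and pass pyruvate to the mitochondrion. They comprise 37 genes listed by symbol, taken from 32545 genes in the deposited count tables, and every one of the 37 symbols matched 1 row. The list holds 3 glucose transporters, 3 genes of hexose phosphorylation and isomerisation, 3 phosphofructokinases, 4 genes of the triose steps, 7 of lower glycolysis and 4 of lactate formation and transport. It also holds 4 Pfkfb genes, 3 pyruvate dehydrogenase kinases, 4 genes of the pyruvate dehydrogenase complex and its phosphatase, and 2 subunits of the mitochondrial pyruvate carrier. The members were chosen by name, with earlier results of these data known.

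The cells were ventricular myocytes from neonatal Sprague-Dawley rats, pooled after isolation, preplated to deplete fibroblasts and kept in a serum-free medium with insulin, transferrin and selenium. All libraries came from cells in 1% dimethyl sulfoxide (DMSO). The 4 groups were DMSO alone for 0.5 h (1 library), and rosiglitazone at 10 µmol/L for 0.5 h, 24 h and 48 h (2 libraries each). Vehicle cultures kept for 24 h or 48 h were not analysed here, so drug exposure and time in culture cannot be told apart in the later groups. Rosiglitazone is a thiazolidinedione that activates the nuclear receptor PPARγ and is known as an insulin sensitizer.

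Glucose enters cells through facilitative transporters and is trapped by hexokinases, after which phosphofructokinase commits it to glycolysis. Pyruvate is either reduced to lactate and exported, or taken into mitochondria by the pyruvate carrier and converted to acetyl-CoA by the pyruvate dehydrogenase complex, which kinases switch off and phosphatases switch on. Heart muscle uses glucose beside fatty acids. Its differentiated myocytes are known for the insulin-responsive transporter GLUT4 and for muscle forms of several glycolytic enzymes, while immature and proliferating cells rely more on GLUT1.

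Library depth ranged from 10886559 counts, in rosiglitazone 48 h replicate 2, to 28074620 counts. Levels are given as CPM, counts scaled to a common library size, always in the order DMSO 0.5 h, rosiglitazone 0.5 h replicates 1 and 2, 24 h replicates 1 and 2, and 48 h replicates 1 and 2. Fold changes are on the log2 scale with their standard error (SE), and p-values come from edgeR's quasi-likelihood test, adjusted by the Benjamini-Hochberg method over 15655 genes. A change was called at an adjusted p under 0.05. The labels do not say that replicates were separate cultures or animals, so the p-values reflect how much these libraries vary, and that variation may be technical only. The comparisons of 24 h with 0.5 h, of 48 h with 24 h and of 48 h with 0.5 h share libraries and are not independent of each other.

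The cell type was checked with marker lists. All 14 matched cardiomyocyte markers had counts in every library. Their summed share of all counts was 0.919% in the DMSO library and 1.66% and 1.56% at 0.5 h of rosiglitazone. It was 1.32% and 0.371% at 24 h, and 0.0421% and 0.179% at 48 h. At 48 h, 12 of the 14 were called lower than at 0.5 h of rosiglitazone (edgeR), with a median log2 fold change of -4.55 over the 14. Over all genes 4.62% were called lower and 1.97% higher, and the median was -0.07. The share of 9 fibroblast markers ranged from 5.08% to 5.24% at 0.5 h, from 3.33% to 3.45% at 24 h and from 1.73% to 3.37% at 48 h, so it exceeded the cardiomyocyte share in each library. Single fibroblast markers were mixed in direction. From 0.5 h to 48 h of rosiglitazone, 4 of the 9 log2 fold changes were positive and 5 negative, with 1 called higher and 0 lower (edgeR). Smooth muscle markers took 0.315% to 0.390% of counts at 0.5 h, 0.0367% to 0.101% at 24 h and 0.00733% to 0.0396% at 48 h. Macrophage markers took 0.0928% of counts in the DMSO library and 0.0261% and 0.03645% at 0.5 h of rosiglitazone. At 24 h and 48 h they took 0.0170% to 0.0444%. From 0.5 h to 48 h of rosiglitazone, 3 of the 10 macrophage log2 fold changes were positive and 7 negative, with 0 called higher and 2 lower (edgeR). Endothelial markers took 0.0178% to 0.0212% at 0.5 h, 0.00566% to 0.0102% at 24 h and 0.00443% to 0.00483% at 48 h. In bulk RNA, fewer cells of a type and less RNA per cell cannot be told apart, and the part of these marker differences in the results below was not tested.

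**Figure D1:**
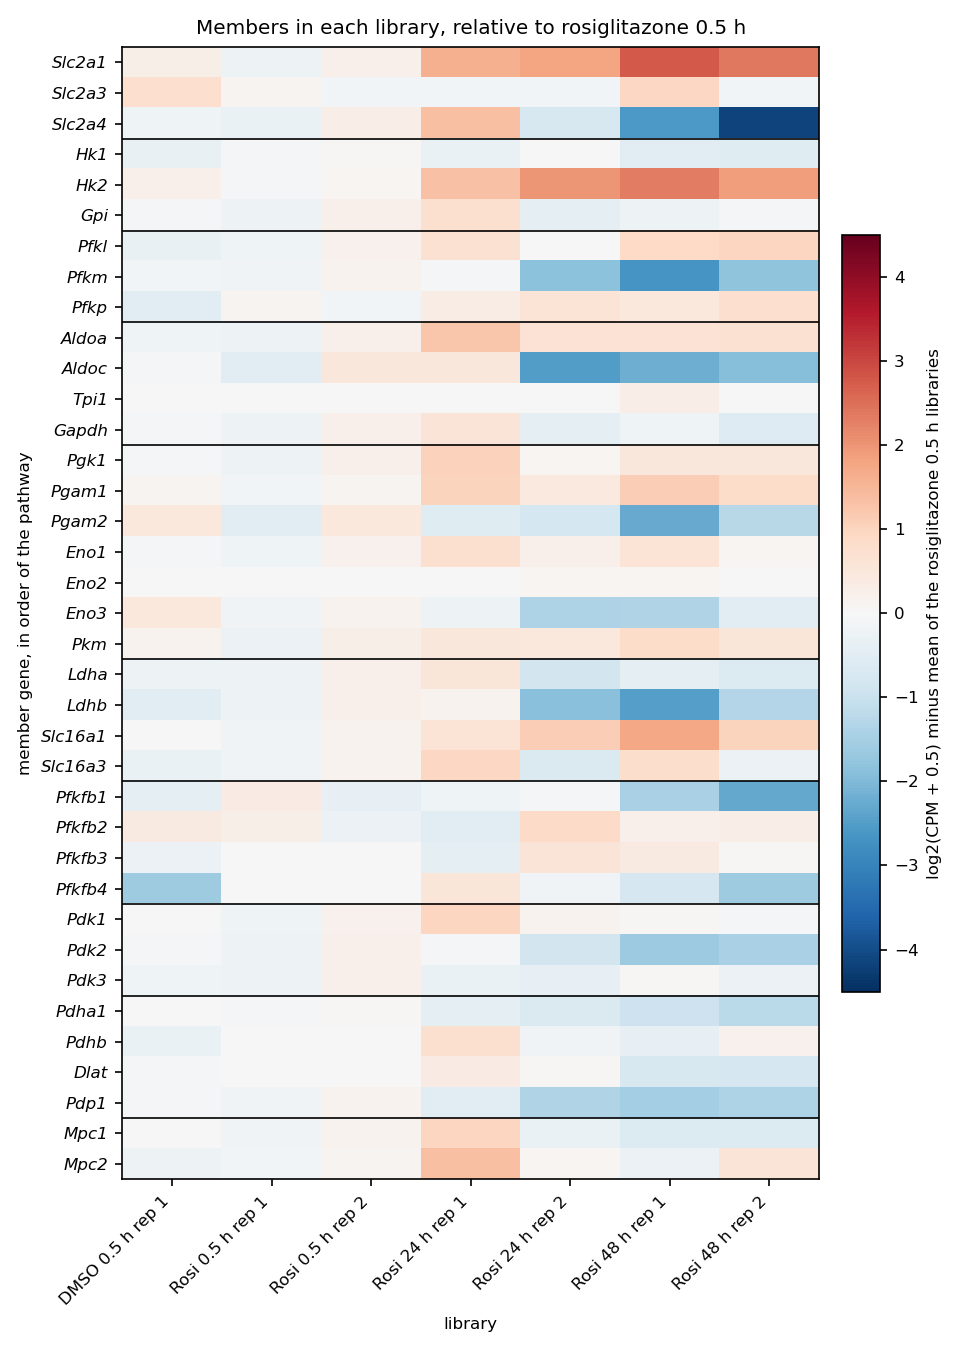
Each row is 1 of the 37 members and each column 1 library. Colour gives log2(CPM + 0.5) minus the mean of the rosiglitazone 0.5 h libraries, and lines separate the steps of the pathway. Slc2a1 and Hk2 are above the 0.5 h level in all 4 later libraries, Slc2a4, Pfkm, Aldoc, Pgam2 and Ldhb are below it in both 48 h libraries, and the DMSO column is close to the 0.5 h columns for most members.

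Between 0.5 h and 48 h of rosiglitazone, 2 of the 35 tested members changed by edgeR, both upward: the transporter gene Slc2a1 rose 5.95-fold and the hexokinase gene Hk2 rose 4.34-fold. EdgeR called no member lower. Over all genes it called 6.59% in this comparison in either direction, near the 2 among 35 members (5.71%). By direction it called 1.97% of all genes higher and 4.62% lower, beside 5.71% and 0% of the members. DESeq2, a second count test, called 13 members where it called 18% of all genes: Slc2a1, Hk2, Slc16a1 and Pgam1 were higher, and the 9 lower were Slc2a4, Pfkm, Aldoc, Pgam2, Ldhb, Pdha1, Dlat, Pdp1 and Pdk2. Values below are edgeR's unless DESeq2 is named. At an unadjusted p under 0.05, 6 members were higher, where 9.65% of all genes were, and 9 members were lower, where 13.3% of all genes were. The median log2 fold change of the tested members was -0.11, beside -0.07 over all genes. In 10 members both 48 h libraries lay above both 0.5 h libraries and in 15 both lay below, against 28.3% and 34.4% of all genes. The 35 tested members are those that passed the filter on low counts; Tpi1 and Eno2 did not pass.

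The glucose transporters differed most among themselves. Slc2a1 encodes GLUT1, the transporter of basal glucose uptake in most cell types. Its levels were 125 CPM with DMSO, 88.5 and 120.3 CPM at 0.5 h of rosiglitazone, 316 and 357 CPM at 24 h, and 708 and 534.5 CPM at 48 h. The 3 rosiglitazone groups did not overlap, and the DMSO library lay just above the 0.5 h pair. The log2 fold change from 0.5 h to 48 h was 2.57 ± 0.31 (SE; adjusted p = 0.0106, edgeR). Slc2a1 no longer passed when 0.5 h replicate 1 (adjusted p = 0.103), 0.5 h replicate 2 (0.0551) or 48 h replicate 1 (0.0712) was left out, while the log2 fold change over 16 alternatives ranged from 2.32 to 2.81.

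Slc2a4 encodes GLUT4, which insulin moves to the surface of muscle and fat cells. Its levels were 7.46 CPM with DMSO, 6.90 and 10.5 CPM at 0.5 h, 22.7 and 4.98 CPM at 24 h, and 1.03 and 0 CPM at 48 h. The 48 h values rest on 28 and 0 counts, against 196 and 290 counts at 0.5 h, and a count of 0 in the shallowest library allows up to 0.276 CPM. Both 48 h libraries lay below every other library, and the 24 h pair spanned the whole earlier range. The log2 fold change from 0.5 h to 48 h was -3.89 ± 1.24, with an unadjusted p of 0.0149 and an adjusted p of 0.111, so it was not called. Slc2a3 encodes GLUT3, the high-affinity transporter of neurons, and had 0 to 15 counts in any library. It was at 0 in 4 of the 7 libraries.

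The hexokinases phosphorylate glucose on entry. Hk2 is the form known for insulin-responsive muscle and fat. It stood at 76.5 CPM with DMSO, 62.2 and 69.8 CPM at 0.5 h, 166.5 and 261 CPM at 24 h, and 328 and 245 CPM at 48 h. All 4 later libraries lay above the 3 half-hour libraries, while the 24 h and 48 h pairs overlapped. From 0.5 h to 48 h the log2 fold change was 2.12 ± 0.32 (adjusted p = 0.0161, edgeR). Hk2 likewise no longer passed when 0.5 h replicate 1 (adjusted p = 0.1496), 0.5 h replicate 2 (0.103) or 48 h replicate 1 (0.106) was left out.

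Hk1, the more widely expressed hexokinase, was at 199 CPM with DMSO, 239 and 257 CPM at 0.5 h, 201 and 249 CPM at 24 h, and 172 and 170.4 CPM at 48 h. The 48 h pair lay below the other libraries, by a log2 fold change of -0.53 ± 0.25 from 0.5 h, which was not called (adjusted p = 0.256). Gpi, which converts glucose 6-phosphate to fructose 6-phosphate, ranged from 267 to 607 CPM, with both extremes in the 24 h pair. Its 48 h and 0.5 h libraries overlapped.

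The phosphofructokinase genes gave log2 fold changes of opposite sign, none of them called by edgeR, while DESeq2 called Pfkm lower. Pfkm, the muscle form, was at 149 CPM with DMSO, 144 and 179.8 CPM at 0.5 h, 153 and 44.5 CPM at 24 h, and 25.2 and 45.8 CPM at 48 h. One 24 h library sat with the half-hour libraries and the other with the 48 h pair. From 0.5 h to 48 h the log2 fold change of Pfkm was -2.19 ± 0.58, at an adjusted p of 0.0693 by edgeR and of 0.00167 by DESeq2.

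Pfkp, the platelet form, stood at 116 CPM with DMSO, 175 and 150.2 CPM at 0.5 h, 205 and 246 CPM at 24 h, and 225 and 272 CPM at 48 h. Its later libraries all lay above the half-hour ones, and the change from 0.5 h to 48 h was small (log2 0.61 ± 0.26, adjusted p = 0.217). Pfkl, the liver form, was at 72.9 CPM with DMSO, 80.8 and 104 CPM at 0.5 h, 148 and 90.2 CPM at 24 h, and 170.4 and 178 CPM at 48 h. Its 48 h pair was above every other library, by a log2 fold change of 0.92 ± 0.31 from 0.5 h (adjusted p = 0.1315).

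**Figure D2:**
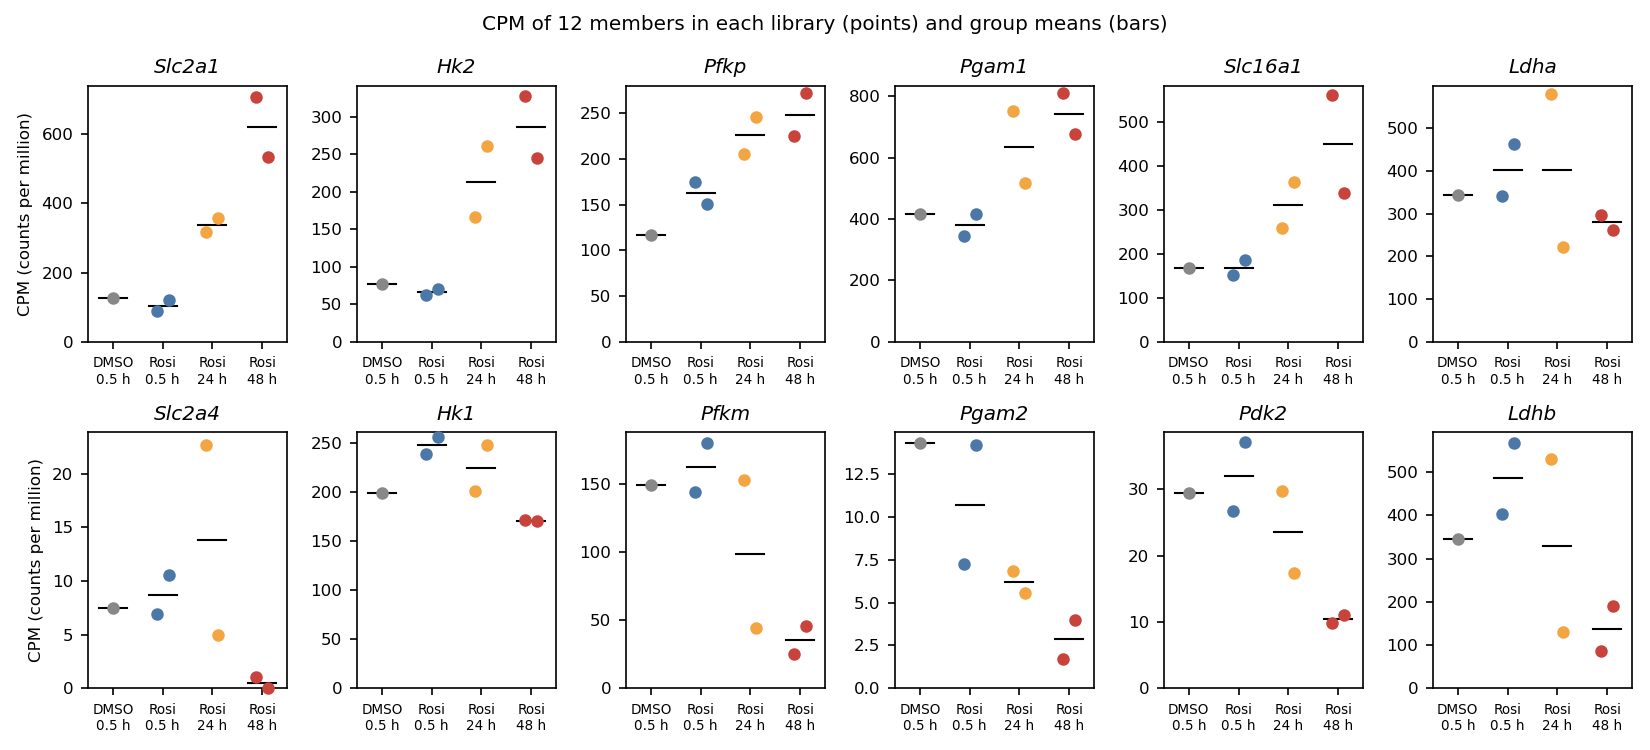
Points give the CPM of 12 members in each of the 7 libraries and bars the group means, with 1 library in the DMSO group and 2 in each rosiglitazone group. Every vertical axis starts at 0 and is linear. Slc2a1 goes from 88.5 and 120.3 CPM at 0.5 h to 708 and 534.5 CPM at 48 h, whereas Slc2a4 goes to 1.03 and 0 CPM, and the 24 h points of Pfkm, Ldha and Ldhb lie far apart.

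Among the triose steps, aldolase splits fructose 1,6-bisphosphate. Aldoa, the muscle and general form, had 985.5 CPM with DMSO, 958 and 1322 CPM at 0.5 h, 2658 and 1772 CPM at 24 h, and 1768 and 1791 CPM at 48 h. Its 48 h libraries lay above the 0.5 h pair, with a difference of 0.64 ± 0.33 on the log2 scale (adjusted p = 0.304). Aldoc, the form known from brain, was at 52.5 CPM with DMSO, 38.4 and 76.7 CPM at 0.5 h, 77.0 and 9.01 CPM at 24 h, and 11.4 and 14.1 CPM at 48 h. The 24 h replicates differed 8.55-fold, more than any other member with counts in all libraries, and 24 h replicate 2 was the lowest of the 7 libraries. The log2 fold change of Aldoc from 0.5 h to 48 h was -2.17 ± 0.87 (adjusted p = 0.189).

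Gapdh, which oxidises glyceraldehyde 3-phosphate and often serves as a reference gene, was at 421.5 CPM with DMSO, 388 and 526 CPM at 0.5 h, 684 and 333.5 CPM at 24 h, and 393 and 300.1 CPM at 48 h. Its log2 fold change from 0.5 h to 48 h was -0.40 ± 0.39, the groups overlapped, and the 24 h replicates differed 2.05-fold. Tpi1, triosephosphate isomerase, was listed with 0 counts in 6 libraries and 3 counts in the seventh. The tables hold other rows described as triosephosphate isomerase: AC094212.1 had 2 to 17 counts per library, and LOC100911515 had 0 in each. How reads that match several of these rows were counted is not given in the sources used here, and the level of Tpi1 is therefore uncertain.

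In lower glycolysis edgeR called no member and DESeq2 called Pgam1 higher and Pgam2 lower (adjusted p = 0.0220 and 0.0311). The muscle and general forms of 2 enzymes again had opposite signs. Pgam1, the general phosphoglycerate mutase, was at 415 CPM with DMSO, 344 and 418 CPM at 0.5 h, 751 and 516.5 CPM at 24 h, and 809.7 and 675.5 CPM at 48 h. Its 48 h pair lay above the 0.5 h pair, with a difference of 0.96 ± 0.31 on the log2 scale (adjusted p = 0.111). Pgam2, the muscle form, was at 14.3 CPM with DMSO, 7.22 and 14.2 CPM at 0.5 h, 6.82 and 5.58 CPM at 24 h, and 1.72 and 3.998 CPM at 48 h. Each group's libraries lay below those of the group before, and the log2 fold change from 0.5 h to 48 h was -1.92 ± 0.63 (adjusted p = 0.121).

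Eno1, the general enolase, ranged from 403 to 750.1 CPM, and Eno3, the muscle enolase, from 6.18 to 24.2 CPM. Their log2 fold changes from 0.5 h to 48 h were 0.36 ± 0.32 and -0.93 ± 0.54, and neither was called. Eno2, the neuronal enolase, had 1 count in each of 2 libraries and 0 in the others, and the tables hold a row described as gamma-enolase-like with 0 to 1 counts. Pgk1, phosphoglycerate kinase, ranged from 518 to 1245 CPM with its highest level in 24 h replicate 1. Pkm, the pyruvate kinase of muscle and proliferating cells, ranged from 330.1 to 691 CPM. Both 48 h libraries of Pgk1 and of Pkm lay above the 0.5 h pair, with log2 fold changes of 0.50 ± 0.37 and 0.66 ± 0.29 (adjusted p = 0.472 and 0.227, edgeR).

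Lactate dehydrogenase interconverts pyruvate and lactate. Ldha, whose subunit predominates in skeletal muscle, was at 343 CPM with DMSO, 342 and 462 CPM at 0.5 h, 580.3 and 223 CPM at 24 h, and 297 and 262 CPM at 48 h. Ldhb, whose subunit predominates in adult heart, was at 347 CPM with DMSO, 404 and 568 CPM at 0.5 h, 530.4 and 129.7 CPM at 24 h, and 85.6 and 189.8 CPM at 48 h. Both genes were lower in the 48 h pair than in the 0.5 h pair without overlap, by log2 fold changes of -0.52 ± 0.45 for Ldha (adjusted p = 0.532) and -1.82 ± 0.67 for Ldhb (adjusted p = 0.156). In Ldhb the 24 h replicates differed 4.09-fold, with replicate 2 inside the 48 h range.

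Slc16a1 encodes the monocarboxylate transporter MCT1. It was at 167.5 CPM with DMSO, 151 and 185 CPM at 0.5 h, 259 and 365 CPM at 24 h, and 561 and 339 CPM at 48 h. All later libraries exceeded the half-hour ones. From 0.5 h to 48 h the log2 fold change of Slc16a1 was 1.42 ± 0.35, at an adjusted p of 0.0543 (edgeR) just outside the threshold. Over 16 alternatives this fold change ranged from 0.98 to 1.74, and whether it passed depended on the fit. Slc16a3, the lactate exporter MCT4, ranged from 19.8 to 60.1 CPM with both extremes in the 24 h pair, and its 0.5 h and 48 h libraries overlapped.

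The Pfkfb genes make and remove the allosteric activator of phosphofructokinase. Pfkfb3, the form with the strongest kinase activity, was at 34.8 CPM with DMSO, 41.3 and 43.3 CPM at 0.5 h, 31.9 and 63.8 CPM at 24 h, and 56.8 and 43.4 CPM at 48 h. The lower 48 h value lay just above the 0.5 h pair, and the log2 fold change was 0.25 ± 0.38. Pfkfb2, the heart form, ranged from 8.39 to 22.1 CPM, both extremes again at 24 h. Pfkfb1 ranged from 0 to 2.68 CPM and Pfkfb4 from 0 to 1.71 CPM, and both were at 0 in 48 h replicate 2.

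At pyruvate entry edgeR called no member. DESeq2 called Pdha1 (adjusted p = 0.00113), Pdp1 (0.00313) and Dlat (0.0461) lower. Pdha1, the catalytic alpha subunit of pyruvate dehydrogenase, was at 236 CPM with DMSO, 233 and 245 CPM at 0.5 h, 176 and 153 CPM at 24 h, and 125 and 104 CPM at 48 h. Its replicates lay close together and the 3 rosiglitazone groups were ordered without overlap. Pdha1 had a log2 fold change of -1.06 ± 0.25 from 0.5 h to 48 h, at an adjusted p of 0.0516 (edgeR) that missed the threshold. Over 16 alternatives this fold change ranged from -1.24 to -0.93, and whether it passed depended on the fit. A row described as pyruvate dehydrogenase alpha 1-like 1 had 51 to 515 counts, in sum 7.51% of the Pdha1 counts.

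Dlat, the acetyltransferase core of the complex, was at 83.4 CPM with DMSO, 87.3 and 87.2 CPM at 0.5 h, 112 and 91.1 CPM at 24 h, and 52.3 and 51.8 CPM at 48 h. The 2 values of the 0.5 h group and the 2 of the 48 h group were nearly equal, and the log2 fold change between these groups was -0.74 ± 0.25 (adjusted p = 0.131). Pdhb, the beta subunit, ranged from 139 to 292.5 CPM and its 0.5 h and 48 h libraries overlapped. Pdp1, the phosphatase that reactivates the complex, was at 68.1 CPM with DMSO, 64.0 and 81.3 CPM at 0.5 h, 50.5 and 27.6 CPM at 24 h, and 24.9 and 27.5 CPM at 48 h. Its 24 h and 48 h libraries all lay below the half-hour ones, and the log2 fold change from 0.5 h to 48 h was -1.47 ± 0.36 (adjusted p = 0.0555).

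Of the kinases that switch the complex off edgeR called none, and DESeq2 called Pdk2 lower (adjusted p = 0.00340). Pdk2 was at 29.5 CPM with DMSO, 26.7 and 37.2 CPM at 0.5 h, 29.8 and 17.4 CPM at 24 h, and 9.88 and 11.1 CPM at 48 h. Its 48 h pair lay below all other libraries, with a log2 fold change of -1.61 ± 0.40 from 0.5 h (adjusted p = 0.0555). Pdk1 was at 34.1 CPM with DMSO, 29.2 and 38.5 CPM at 0.5 h, 66.2 and 37.4 CPM at 24 h, and 35.0 and 31.7 CPM at 48 h. Its log2 fold change from 0.5 h to 48 h was -0.02 ± 0.36. Pdk3 ranged from 29.4 to 43.9 CPM, the narrowest range of the members with counts in all libraries (1.49-fold).

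Pdk4, a kinase of the same family known as a PPAR target and not among the members, was at 10.4 CPM with DMSO, 14.4 and 21.7 CPM at 0.5 h, 21.9 and 38.8 CPM at 24 h, and 27.2 and 26.4 CPM at 48 h. It was not called in any comparison. The carrier subunit Mpc1 was at 77.95 CPM with DMSO, 71.3 and 89.1 CPM at 0.5 h, 158 and 65.4 CPM at 24 h, and 52.0 and 52.4 CPM at 48 h. From 0.5 h to 48 h its log2 fold change was -0.62 ± 0.41 (adjusted p = 0.425). Mpc2, the other subunit, ranged from 51.1 to 156.5 CPM and, like Mpc1, was highest in 24 h replicate 1.

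**Figure D3:**
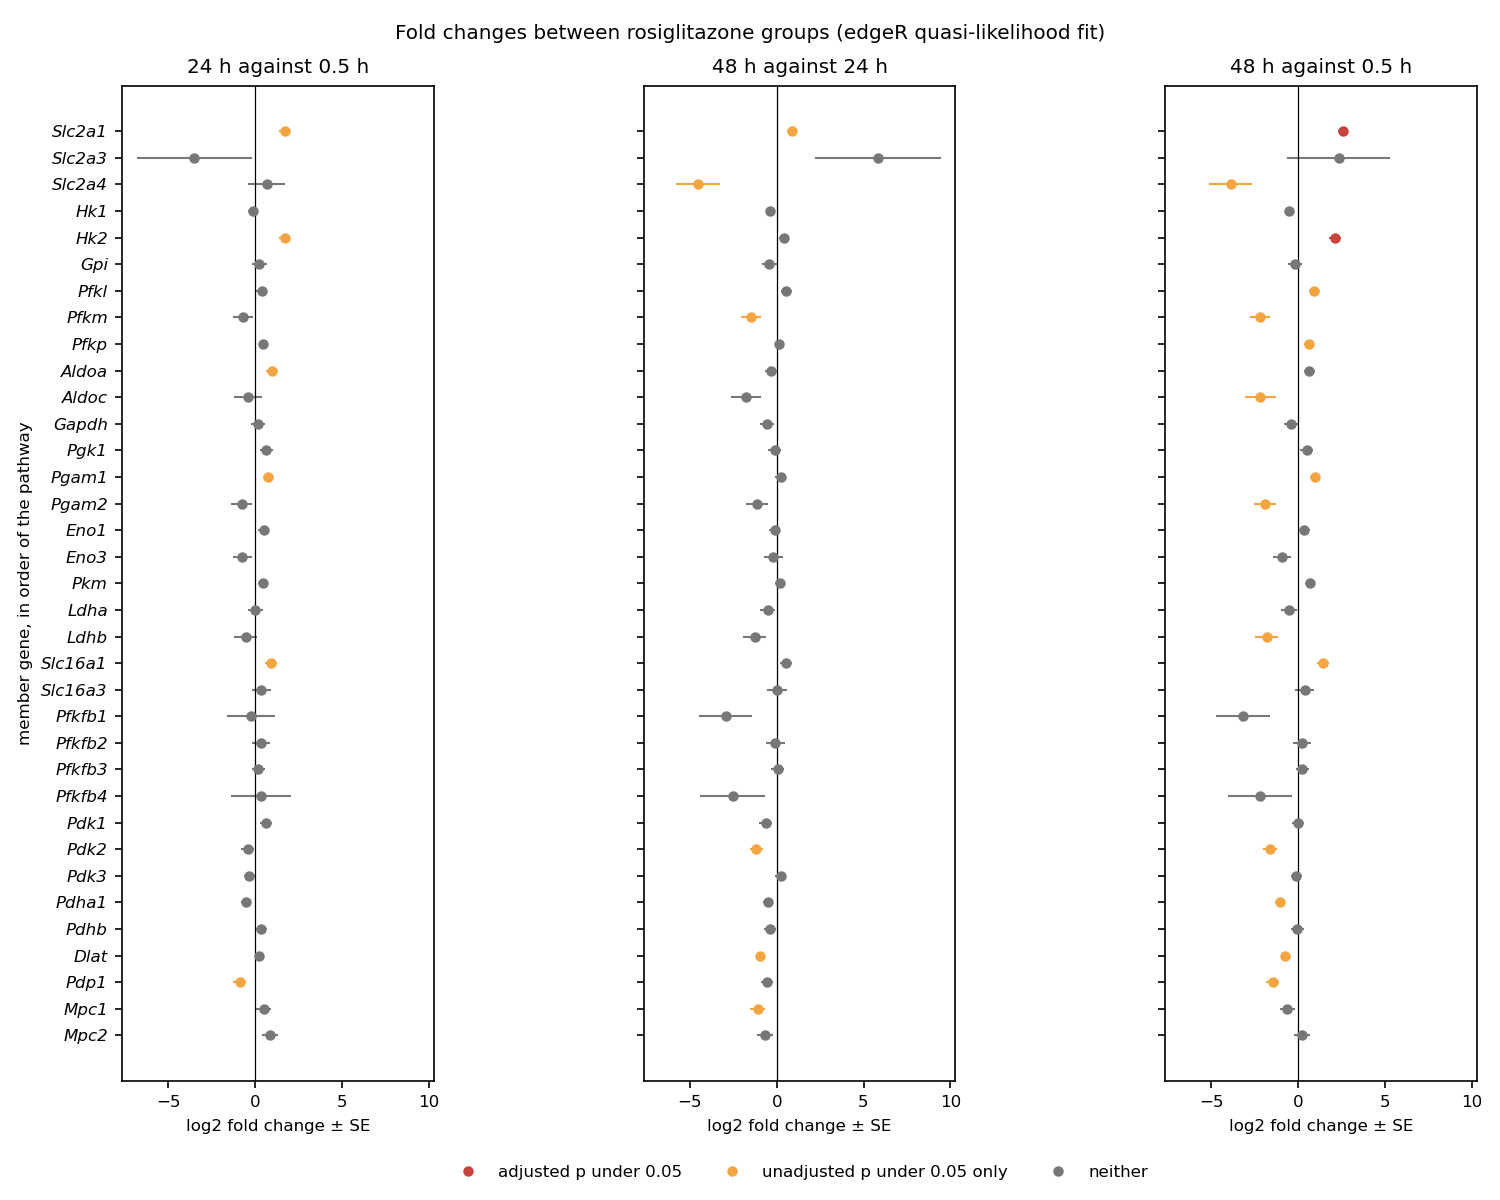
Points give the log2 fold change of the 35 tested members and lines the SE, between the rosiglitazone groups named above each panel, on 1 common axis. Red marks an adjusted p under 0.05 and orange only an unadjusted p under 0.05. Red appears only in the right panel, for Slc2a1 (2.57) and Hk2 (2.12), and the widest lines belong to the low-count genes Slc2a3, Slc2a4, Pfkfb1 and Pfkfb4.

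By 24 h, no member was called by edgeR against 0.5 h (smallest adjusted p 0.0812), where 0.0958% of all genes were called. DESeq2 called Slc2a1 and Hk2 higher, 2 members, against 8.39% of all genes called in either direction. At an unadjusted p under 0.05, 5 members were higher, beside 6.55% of all genes: Slc2a1 (log2 fold change 1.69 ± 0.30), Hk2 (1.69 ± 0.32), Aldoa (0.96 ± 0.33), Slc16a1 (0.89 ± 0.34) and Pgam1 (0.73 ± 0.31). The only member lower at that level was the phosphatase gene Pdp1 (-0.90 ± 0.36), beside 9.12% of all genes. In 9 members the 24 h pair lay above the 0.5 h pair and in 5 below, against 21.2% and 28.9% of all genes. The median log2 fold change of the members was 0.31, beside -0.03 over all genes, and was -0.18 without 24 h replicate 1. Without that library edgeR called 5 members and 6.52% of all genes, and without 24 h replicate 2 it called 2 members and 3.23% of all genes.

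The authors' deposited table for this comparison, which holds the splits of each library as separate columns, lists 10 members higher and 2 lower at an adjusted p under 0.05. It lists 17.8% of all genes as higher and 21.2% as lower. Its 2 members listed lower are Pdha1 (log2 fold change -0.52) and Pdp1 (-0.85). The authors' deposited table has Slc2a1 at 1.69, Hk2 at 1.68 and Aldoa at 0.95 on the same scale.

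Between 24 h and 48 h, no member and 0% of all genes were called by edgeR (smallest adjusted p among members 0.328). DESeq2 called 2 members, Dlat and Slc2a4, both lower, against 3.48% of all genes in either direction. At an unadjusted p under 0.05, Slc2a1 was higher (log2 fold change 0.88 ± 0.29), beside 2.8% of all genes. The 5 members lower at that level, beside 5.34% of all genes, were Dlat (-0.96 ± 0.26), Slc2a4 (-4.56 ± 1.27), Pdk2 (-1.17 ± 0.39), Mpc1 (-1.10 ± 0.42) and Pfkm (-1.48 ± 0.57). Groups did not overlap in 4 members higher at 48 h and 11 lower, against 14.5% and 14.6% of all genes.

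The median log2 fold change over members from 24 h to 48 h was -0.39, beside -0.01 over all genes, and was 0.09 without 24 h replicate 1. Without 24 h replicate 2 edgeR called 3 members and 3.31% of all genes. The authors' deposited table for 48 h against 24 h lists 1 member higher (Slc2a1, 0.85) and 10 lower, where it lists 6.99% and 9.46% of all genes. The members it lists lower include Dlat (-0.96), Pdk2 (-1.10), Slc2a4 (-2.54) and Pdha1 (-0.52). For the low-count gene Slc2a4 the edgeR fit gave -4.56 ± 1.27, so the 2 values are not like measures.

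**Figure D4:**
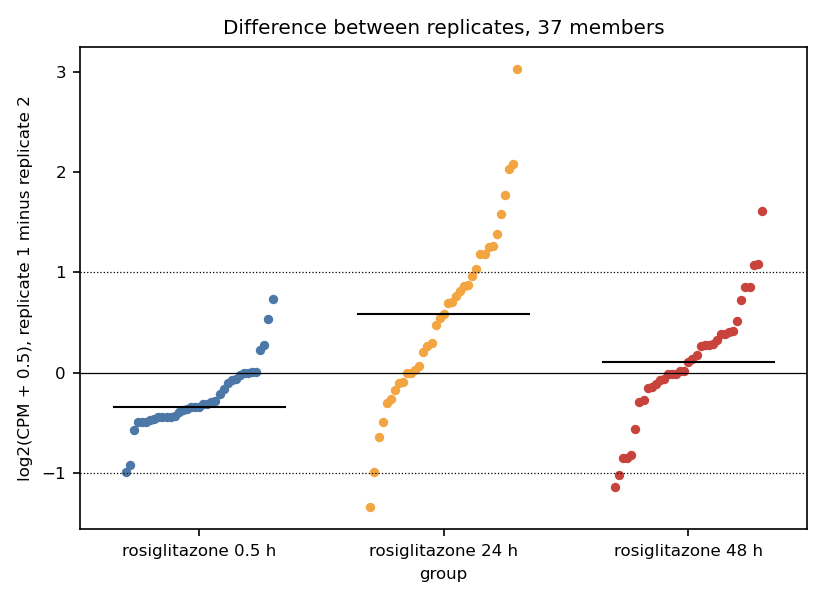
Each point is 1 of the 37 members, sorted within its group, and its height is log2(CPM + 0.5) of replicate 1 minus that of replicate 2. Black bars mark the medians and dotted lines a 2-fold difference. At 24 h 12 of the 37 members (32.4%, beside 30.8% of all genes tested) lie beyond the dotted lines and the median is 0.58, whereas at 0.5 h no member lies beyond them (5.33% of all genes tested).

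The replicates of the 24 h group differed more than 2-fold in 12 of the 37 members (32.4%), near the 30.8% of all genes tested. At 48 h 5 members (13.5%) did so, beside 16.9% of all genes, and at 0.5 h none, beside 5.33%. In 26 of the members 24 h replicate 1 was the higher library. Aldoc, Slc2a4 (4.56-fold), Ldhb, Pfkm (3.43-fold), Slc16a3 (3.03-fold) and Ldha (2.6-fold) were among those higher in replicate 1. Hk2 (1.57-fold) and Pfkfb2 (2.63-fold) were higher in replicate 2. The cardiomyocyte marker share was 1.32% in replicate 1 and 0.371% in replicate 2, and its part in these differences was not tested. Slc2a1 (1.13-fold), Pkm and Pdk3 differed little between the replicates. Of the 31 members with counts in all 7 libraries, 13 were highest in 24 h replicate 1. For this count and for the 26 members higher in 24 h replicate 1, the share over all genes was not computed.

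At 0.5 h, the comparison with DMSO asks for an early response to the drug. It rests on 1 DMSO library. No member was called by edgeR (smallest adjusted p 1), none had an unadjusted p under 0.05, and DESeq2 called none. Over all genes edgeR called 0%, DESeq2 called 0.0128%, and 0.109% were higher and 0.498% lower at an unadjusted p under 0.05. In 11 members both rosiglitazone libraries lay above the DMSO library and in 6 both lay below, against 30.2% and 31.8% of all genes. The median log2 fold change was 0.12 (0.01 over all genes) and was -0.11 without rosiglitazone 0.5 h replicate 2.

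Pfkfb4 had 0 counts with DMSO and 29 and 28 counts in the rosiglitazone 0.5 h libraries. Set against 3 counts in the DMSO library, its level was at least 9.52-fold higher, and the test of the difference gave an unadjusted p of 0.0608. The authors' deposited table for this comparison lists 4 members higher and 0 lower at an adjusted p under 0.05, where it lists 5.07% and 5.96% of all genes. The 4 were Pfkp (0.46), Hk1 (0.31), Pdhb (0.28) and Pfkfb4 (0.82), on the log2 scale of the authors' deposited table. For Pfkfb4 the edgeR fit gave 7.65 ± 3.47, so the authors' value is not a like measure for this low-count gene. For Slc2a1 and Hk2 the fitted log2 fold changes were -0.26 ± 0.35 and -0.21 ± 0.38.

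Pairs of isozymes were compared within each library by the ratio of their counts, which does not depend on scaling. A ratio between genes of different length is not a ratio of molecules, and only its change between libraries is read. Hk2 to Hk1 was 0.384 with DMSO, 0.2598 and 0.272 at 0.5 h, 0.827 and 1.05 at 24 h, and 1.905 and 1.44 at 48 h. The ratio was ordered by time without overlap and 6.23-fold higher at 48 h than at 0.5 h. Pfkm to Pfkp was 1.29 with DMSO, 0.823 and 1.1970 at 0.5 h, 0.7445 and 0.181 at 24 h, and 0.112 and 0.169 at 48 h, a 7.22-fold lower ratio at 48 h than at 0.5 h.

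Pgam2 to Pgam1 was 0.0344 with DMSO, 0.0210 and 0.0339 at 0.5 h, 0.00908 and 0.0108 at 24 h, and 0.00212 and 0.00592 at 48 h. This ratio, too, was ordered by time and was 7.52-fold lower at 48 h than at 0.5 h, 4.51-fold without 48 h replicate 1 and 12.55-fold without 48 h replicate 2. Pdk2 to Pdk1 was 0.865 with DMSO, 0.913 and 0.968 at 0.5 h, 0.4495 and 0.465 at 24 h, and 0.282 and 0.349 at 48 h, in the same order. In the pyruvate dehydrogenase kinases the 24 h replicates, which stood apart in many single genes, gave nearly the same ratio.

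Ldha to Ldhb was 0.989 with DMSO, 0.845 and 0.813 at 0.5 h, 1.09 and 1.72 at 24 h, and 3.47 and 1.38 at 48 h. It was 2.64-fold higher at 48 h than at 0.5 h (1.67-fold without 48 h replicate 1 and 4.18-fold without 48 h replicate 2), and its 24 h and 48 h pairs overlapped. Eno3 to Eno1 and Slc16a3 to Slc16a1 were 2.52-fold and 2.17-fold lower at 48 h than at 0.5 h, without overlap. For Eno3 to Eno1 this was 1.54-fold without 48 h replicate 1 and 4.11-fold without 48 h replicate 2. Slc2a4 to Slc2a1 was 0.0595 with DMSO, 0.0781 and 0.0876 at 0.5 h, 0.0717 and 0.0139 at 24 h, and 0.00145 and 0 at 48 h. With 3 counts in place of 0, its mean log2 ratio was -6.57 relative to 0.5 h, -7.31 without 48 h replicate 1 and -5.84 without 48 h replicate 2. The first 2 of these values rest on the 3 counts put in and are bounds, so the ratio itself may be lower. The cardiomyocyte marker share was lower in both 48 h libraries than in both 0.5 h libraries. It differed between the 24 h libraries (1.32% and 0.371%). Its part in the ratios was not tested. No test was made of the ratios.

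**Figure D5:**
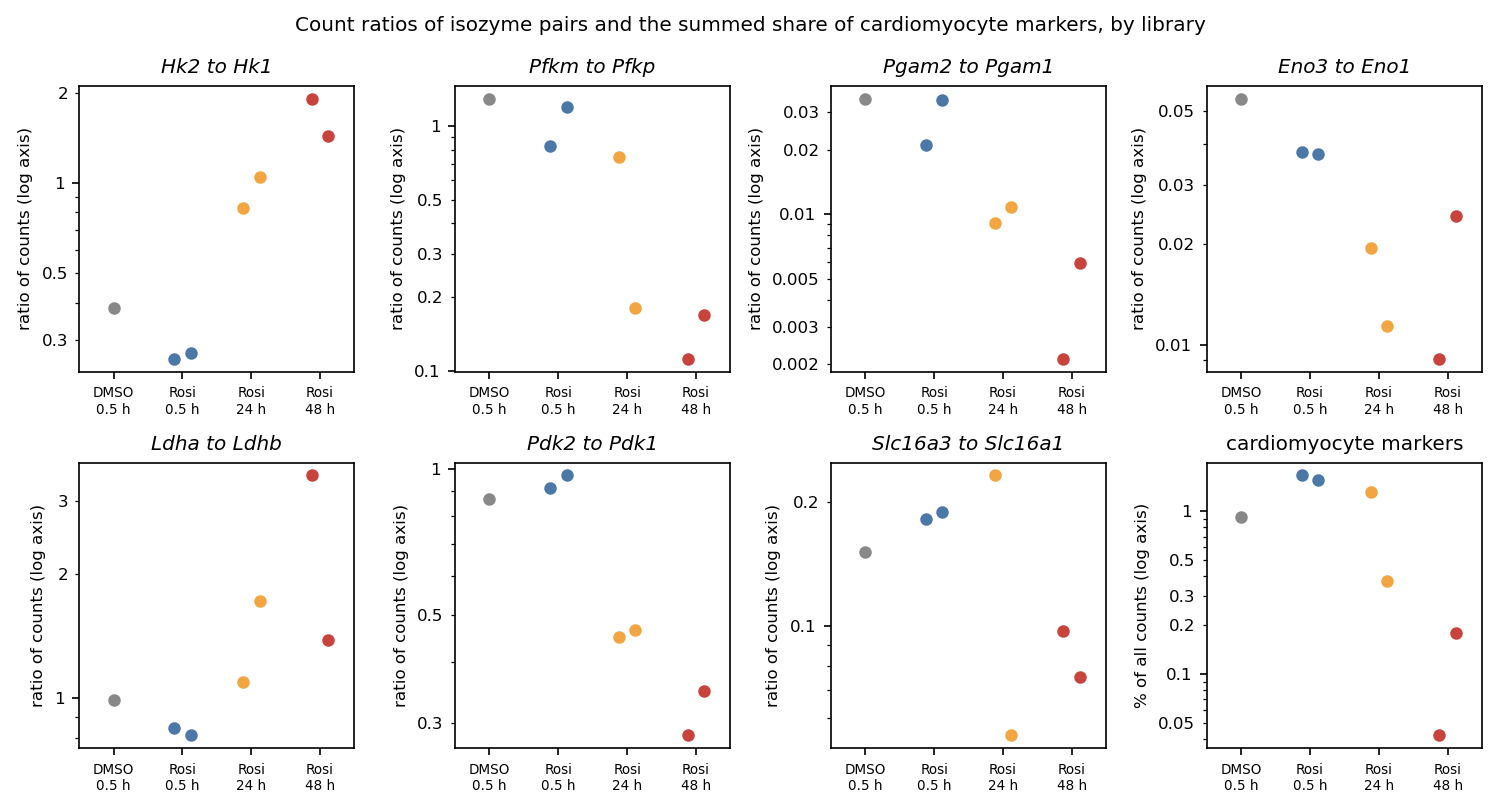
The first 7 panels show the ratio of counts of an isozyme pair in each library, and the last shows the summed share of 14 cardiomyocyte markers in percent of all counts, all on log axes. Hk2 to Hk1 goes up from 0.2598 and 0.272 at 0.5 h to 1.905 and 1.44 at 48 h, while Pfkm to Pfkp, Pgam2 to Pgam1 and Pdk2 to Pdk1 go down from 0.5 h to 48 h, as does the marker share.

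Other genes of glucose metabolism were taken from lists written with earlier results of these data known. The 7 lists described here hold 80 tested genes, of which 6 rose and 4 fell from 0.5 h to 48 h, where 1.97% of all genes rose and 4.62% fell. At 24 h edgeR called none of them against 0.5 h. At an unadjusted p under 0.05, 10 were higher and 8 lower there, beside 6.55% and 9.12% of all genes, and DESeq2 called 6 higher and 5 lower, beside 8.39% of all genes in either direction. Between 0.5 h and 48 h, 3 of 7 genes of the pentose phosphate pathway, which branches off after hexokinase, rose and none fell. They were the transaldolase gene Taldo1 (log2 fold change 2.64 ± 0.35, adjusted p = 0.0128), the transketolase gene Tkt (1.496 ± 0.28, adjusted p = 0.0269) and the ribose 5-phosphate isomerase gene Rpia (1.396 ± 0.28). Apart from Pdk4 and Txnip, genes of these lists are named for their small p-values in these data, by a rule given below. Rpia and Egln3 fall outside that rule and were named after their values were seen, because they make up these counts. The median of the 7 was 1.19. Of these 7, 5 were higher and 1 lower at an unadjusted p under 0.05 (edgeR), beside 9.65% and 13.3% of all genes.

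Of 10 genes of the hexosamine and polyol routes 2 rose: Akr1b1, aldose reductase (1.41 ± 0.26), and Gfpt2, a form of the enzyme that starts hexosamine synthesis (3.29 ± 0.65). Of 20 tested genes for other isozymes and transporters 1 fell, Slc2a13, a proton-coupled inositol transporter (-2.16 ± 0.41). Over all genes 1.97% rose and 4.62% fell.

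None of 7 other genes of the pyruvate dehydrogenase system passed, nor did any of 6 of gluconeogenesis or of 9 of the NADH shuttles. At an unadjusted p under 0.05 (edgeR) these counts were 1 higher, 1 lower and 2 lower, beside 9.65% of all genes higher and 13.3% lower. DESeq2 likewise called 1 higher, 1 lower and 2 lower, beside 18% of all genes in either direction. Pdhx, which anchors a subunit to the Dlat core, had a log2 fold change of 0.96 ± 0.26 (adjusted p = 0.0711), the opposite sign of Dlat. Of 21 regulators of glucose genes 1 rose and 3 fell, where 1.97% of all genes rose and 4.62% fell. The one that rose was Egln3, an oxygen-sensing prolyl hydroxylase (2.37 ± 0.51). Those that fell were Mef2c, a muscle transcription factor (-2.97 ± 0.40), Irs1, an insulin receptor adaptor (-2.61 ± 0.40), and Ppargc1a, a coactivator of mitochondrial genes (-3.22 ± 0.57). Txnip, whose product restrains glucose uptake, was at 430 CPM with DMSO, 387 and 463 CPM at 0.5 h, 386 and 154 CPM at 24 h, and 118 and 208 CPM at 48 h. Its log2 fold change from 0.5 h to 48 h was -1.38, with an adjusted p of 0.137.

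For 48 h against 0.5 h, edgeR called 12 members and 17.5% of all genes when 24 h replicate 1 was left out, and 14 members and 17.55% of all genes when 24 h replicate 2 was, although neither library is in the groups compared. These libraries enter the fit through the filter on low counts, the scaling and the shared estimate of the spread. Which of these changed the calls was not tested. Neither Slc2a1 nor Hk2 lost its call in those fits.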

How the data were processed

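RNA-seq was done on rat neonatal ventricular myocytes. The series title speaks of mice, but the labels and all gene identifiers are rat. The deposited tables hold whole-number counts per gene; per the submitters' processing notes FastQC 0.11.5, cutadapt 1.11, HTSeq and DESeq2 were used and the builds Rnor_6.0 and hg19 are named. The aligner is not given in the sources used here. The authors' deposited tables also give log2 fold changes and adjusted p-values beside the counts of the single samples; which columns entered that test as replicates is not given in the sources used here.

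The 14 samples are 2 splits of each of 7 libraries. Splits of a library agreed within sampling noise (chi-square tests over genes, smallest p = 0.112), whereas libraries of a group did not, so splits were summed and counted as 1 sample. Repeated rows (460 of 33005) were dropped and 8 count columns given in a second table were equal there and used once.

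Counts were filtered with filterByExpr, scaled by TMM and tested with edgeR 4.0.16 (R 4.3.3) in 1 quasi-likelihood fit of 4 groups and 7 libraries (3 residual degrees of freedom), with DESeq2 1.42.0 as an alternative; the code was tested on simulated data. SE is the log2 fold change divided by the root of the F statistic. CPM is counts divided by the scaled library size. A count of 0 is read as under 3 counts; floors cover counting error only. Replicate numbers pair nothing in the labels.

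The members and lists were chosen with earlier results of these data known. Levels were given in every library for members with an unadjusted p under 0.05 in any comparison and for 13 set genes (Slc2a1, Slc2a4, Hk1, Hk2, Pfkm, Pfkp, Gapdh, Ldha, Ldhb, Pfkfb3, Pdk1, Pdk2, Mpc1), the others by range. Of other genes, Pdk4, Txnip and the 2 genes of smallest p in each pathway list could be named, and rows described as copies of members were picked after the tables were seen. Of 163 list entries 153 matched a row. Gene lengths were not used, so levels of different genes are not compared. Protein and promoter sequences were not used here. The glycogen list is not reported here.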

Additional observations from a re-analysis of the deposited data

How the results depend on the processing

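The number of members called depended on the fit. From 0.5 h to 48 h it was 2 in the reported fit (6.59% of all genes), 13 with the DESeq2 test (18%), 6 with no filter on low counts (6.83%), 5 with a mean of at least 5 CPM (10.3%), 11 with only the groups compared (19.6%), 4 with split a alone (7.23%), 21 with each split as a replicate (47.95%) and 7 at a threshold of 0.10 (12.4%). It ranged from 0 to 14 when 1 library was left out (0.0773% to 17.55% of all genes). The fit on the 4 libraries compared alone has fewer samples, and splits as replicates measure sampling noise only. The cause of the differences between fits was not tested. From 0.5 h to 24 h the reported 0 (0.0958% of all genes) became 2 with the DESeq2 test (8.39%), 2 with no filter (1.80%), 13 with each split as a replicate (38.9%) and 2 at a threshold of 0.10 (1.32%), and 0 to 5 when a library was left out (0% to 6.52% of all genes). From 24 h to 48 h the 0 (0% of all genes) became 2 with the DESeq2 test (3.48%) and 13 with each split as a replicate (19.96%), and 0 to 3 when a library was left out (0% to 3.31%). Against DMSO it was 0 in every alternative run.

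Leaving out 1 library moved the median log2 fold change of the members between -0.11 and 0.28 for 0.5 h against DMSO, between -0.18 and 0.51 for 24 h against 0.5 h, between -0.71 and 0.0928 for 48 h against 24 h, and between -0.34 and -0.00743 for 48 h against 0.5 h. The log2 change of an isozyme ratio from 0.5 h to 48 h kept its sign with any 1 library left out, and moved by over 1.5 times, with either 48 h library left out, for Ldha to Ldhb (0.74 to 2.06), Eno3 to Eno1 (-2.04 to -0.62), Pgam2 to Pgam1 (-3.65 to -2.17) and Slc2a4 to Slc2a1 (-7.31 to -5.84). For Slc2a4 to Slc2a1, -7.31 is a bound with 3 counts in place of 0. For single members with an unadjusted p under 0.05, no value under an alternative changed sign, 335 stayed on their side of the threshold, 6 lost a call and 91 gained one. The gained calls include those from each split as a replicate, which measures sampling noise only. That fit alone called Aldoa, Pgam1 and Slc16a1 for 24 h against 0.5 h. It alone also called Pfkp for 48 h against 0.5 h, and Slc2a1 and Pdk2 for 48 h against 24 h. The median for 24 h against 0.5 h was 0.32 without Slc2a3, which is at or under 3 counts in both groups, and that for 48 h against 24 h was -0.39 with Slc2a3 at its bound against 3 counts.

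With the replicate number as a replicate block, 2 members were called from 0.5 h to 48 h (Slc2a1 and Hk2, adjusted p 0.0328 and 0.0439) and 407 genes in all, against 1031 without the block. The numbers are shared only as numbers. A depth of 10886559 counts in 48 h replicate 2 limits what can be said of genes under about 1 CPM there, such as Slc2a3, Slc2a4, Pfkfb1 and Pfkfb4.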
